A study of Rattus norvegicus with 7 samples.

Results

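Genes of MHC class II antigen presentation and of Langerhans cells were examined in the rat meibomian gland, 9 in all: RT1-Da and RT1-Db1, RT1-Ba and RT1-Bb (the chains of the 2 rat class II molecules), RT1-DMa and RT1-DMb (the peptide editor), Cd74, Ciita and Cd207. They were chosen by symbol from a list of names. Of the 9, 3 were measured among 17246 genes of the count table: Cd74, Ciita and Cd207. The other 6, all chains of class II molecules or of DM, were not analysed here. All 3 measured genes passed the filter on low counts.

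Langerhans cells are dendritic cells of the epidermis and of other stratified epithelia. They carry antigen from the surface to lymph nodes and are known by langerin, a mannose-binding lectin of their Birbeck granules encoded by Cd207. Like other antigen-presenting cells they display peptides on MHC class II, an alpha and beta chain pair that assembles with the invariant chain, encoded by Cd74. The peptide editor DM then exchanges the invariant chain fragment for antigen peptide. The transactivator encoded by Ciita switches these genes on through factors bound to an X box and a Y box upstream of their start. Keratinocytes feed Langerhans cells with interleukin 34, which acts on the receptor encoded by Csf1r.

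Both groups were meibomian glands of wild-type female Sprague-Dawley rats aged 3 months. The meibomian gland is the oil gland of the eyelid. The UVB group (n = 3) had shaved upper lids exposed to 300 mJ/cm2 of ultraviolet B, in sessions of 5 min per day on 5 days, and the Control group (n = 4) is labelled as not treated. Shaving of the controls and the delay before dissection are not stated, and the labels do not say that each library is a separate animal. Each column name carries a different number whose meaning is not stated, so p-values measure the spread between these libraries, which may be technical. Letters name the control libraries (a, b, c and d) and the UVB libraries (a, b and c) and pair nothing. They held 20680237 to 28784941 counts. Meibocyte markers were abundant in all 7, with the desaturase gene Scd alone at 71265 CPM or more (the count scaled to the TMM-adjusted library size).

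The DNA upstream of 3 of these genes is printed to show where the class II motifs lie in a chain gene and what stands upstream of the 2 measured genes in the table. Each stretch is the 150 bases before the gene's start from RefSeq (build GRCr8, the Brown Norway rat, read 5′ to 3′ on the gene's strand). The files use build rn7, and no coordinates were converted. Capitals mark matches on either strand to the X box (searched as G, any 2 bases, AC, any base, then GATG) or the Y box (GATTGG). RT1-Da is at chr20:4515265-4515414 on the plus strand, Cd74 at chr18:56527056-56527205 on the plus strand and Cd207 at chr4:117719192-117719341 on the minus strand.
RT1-Da: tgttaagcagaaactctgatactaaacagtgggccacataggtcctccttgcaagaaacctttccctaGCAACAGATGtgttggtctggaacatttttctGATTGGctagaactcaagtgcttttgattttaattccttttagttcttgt
Cd74: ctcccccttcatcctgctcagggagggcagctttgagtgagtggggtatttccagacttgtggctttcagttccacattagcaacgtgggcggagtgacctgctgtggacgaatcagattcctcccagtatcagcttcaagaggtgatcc
Cd207: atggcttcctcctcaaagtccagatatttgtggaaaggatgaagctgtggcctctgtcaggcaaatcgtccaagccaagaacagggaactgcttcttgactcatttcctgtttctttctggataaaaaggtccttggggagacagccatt

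Of the 9 genes, 7 had a promoter in the RefSeq table, RT1-DMb and Ciita being the other two. In the 300 base window (250 bases before the start and 50 after), 4 of the 7 held both motifs: RT1-Da, RT1-Db1, RT1-Bb and RT1-DMa. RT1-Ba held the Y box only. Among all 33469 promoters in the table, 2.84% held the X box letters, 14.8% the Y box letters and 0.421% both. In RT1-Da the X box match began 82 bases and the Y box match 50 bases before the start. Neither motif, as spelled here, was found in the windows of Cd74 and Cd207, which says only that these letters are not in them.

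The langerin gene was lower in every irradiated gland, while the invariant chain and transactivator genes overlapped between the groups. Cd207 (NCBI gene 502852) fell to 42.4% of its control level. Cd74 (NCBI gene 25599) measured 85.1% and Ciita (NCBI gene 85483) 113.3% of control, and neither passed the test. Thus 1 of 3 measured genes was called, beside 13.0% of all 13709 genes tested (6.30% called higher and 6.74% lower). The median log2 fold change of all genes tested was -0.0058.

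Cd207 measured 11, 22.5, 13.5 and 17.6 CPM in controls a to d, from 236, 482, 390 and 413 counts. It measured 5.55, 7.24 and 7.67 CPM in irradiated libraries a to c, from 117, 187 and 199 counts. The groups did not overlap, which held for 26.6% of all genes tested (12.8% higher and 13.8% lower after UVB), and the controls spread over a wider range than the irradiated libraries. The means were 16.2 ± 5.04 CPM (SD, n = 4) and 6.82 ± 1.12 CPM (SD, n = 3), and the log2 fold change was -1.24 (SE 0.247; edgeR quasi-likelihood, adjusted p = 0.0167). In bulk tissue, fewer langerin-bearing cells and less langerin RNA per cell cannot be told apart. The call was lost without UVB a (log2 fold change -1.11, adjusted p = 0.0533) and without UVB b (-1.28, adjusted p = 0.0523), so that 0 of 3 measured genes were then called by edgeR, with 1 of 3 at an unadjusted p under 0.05. In the other 5 fits that left out 1 library Cd207 stayed past the threshold.

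Cd74 measured 153.1, 283.2, 181.3 and 209.4 CPM in controls a to d, against 172.8, 134.3 and 220.4 CPM in irradiated libraries a to c. Control b was the highest and UVB b the lowest, and the 2 other UVB libraries lay inside the control range. The means were 206.8 ± 55.9 CPM (SD, n = 4) and 175.8 ± 43.1 CPM (SD, n = 3), and the log2 fold change was -0.23 (SE 0.237, adjusted p by edgeR = 0.557). It moved to -0.045 without control b, to -0.068 without UVB b and to -0.43 without UVB c, with no call in any of these fits. The difference in invariant chain RNA was smaller than the spread within either group.

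Ciita was scarce, at 3.13, 5.09, 4.35 and 5.51 CPM in controls a to d, against 4.98, 3.52 and 6.86 CPM in irradiated libraries a to c. UVB c was the highest of all 7 and control a the lowest. It differed by 0.18 on the log2 scale (SE 0.258; edgeR adjusted p = 0.687). Its sign rested on UVB c: without that library it was -0.094, and without UVB b it was 0.40, with no call either way.

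**Figure D1:**
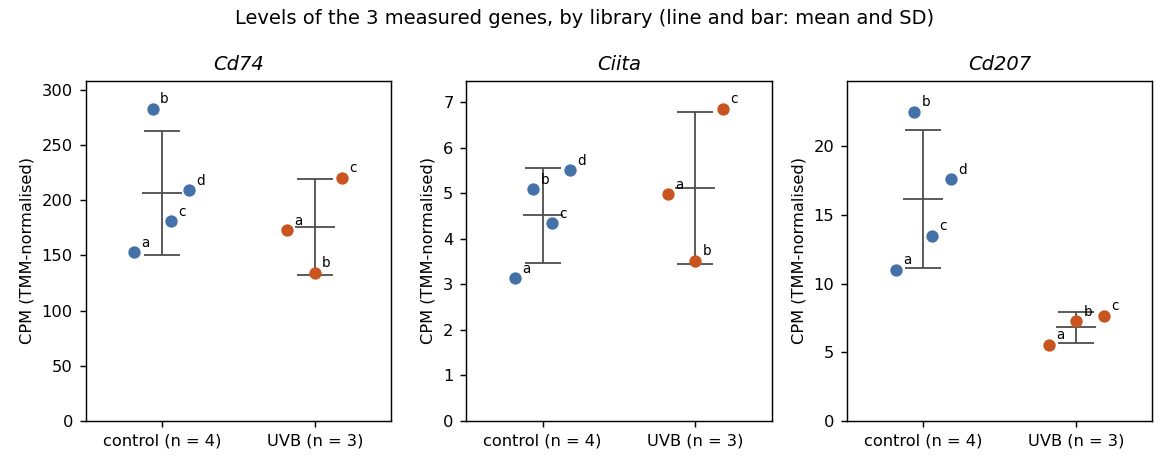
TMM-scaled CPM of Cd74, Ciita and Cd207 in each library, with letters naming the libraries and the line and bar giving the group mean and SD. The 3 UVB points of Cd207 lie at 5.55 to 7.67 CPM, below all 4 controls, while the groups overlap for Cd74 and Ciita.

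**Figure D2:**
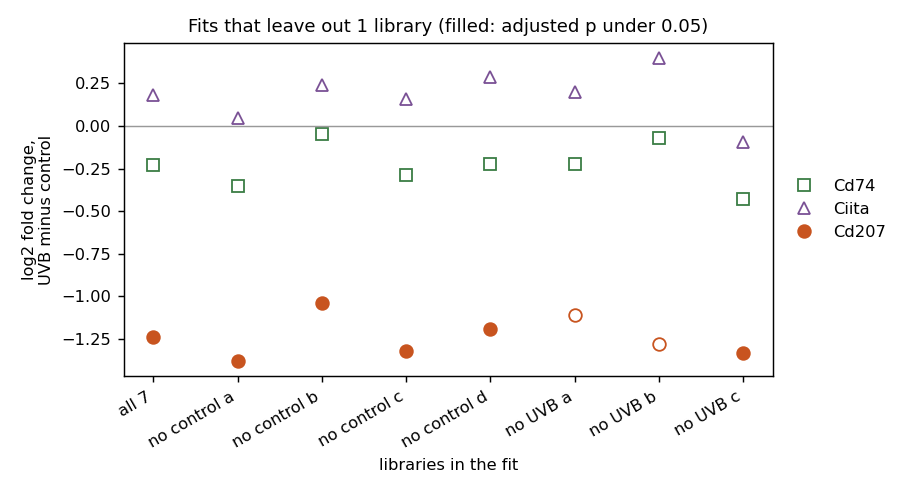
The log2 fold change (UVB minus control) of the 3 genes with all 7 libraries and with each library left out in turn, filled where the adjusted p was under 0.05. Cd207 stays between -1.38 and -1.04 and loses its call without UVB a or UVB b, and Ciita changes sign without UVB c.

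Per unit of transcript length, the 3 genes kept 1 order in every library. The deposited TPM, which is scaled for transcript length, of Cd74 ran from 171.2 to 366.2, that of Cd207 from 6.83 to 27.1 and that of Ciita from 0.98 to 2.17. No library of one gene overlapped a library of the next. In the controls Cd74 averaged 267.4 ± 72.4 TPM (SD, n = 4), Cd207 19.5 ± 6.03 TPM and Ciita 1.42 ± 0.323 TPM. After UVB the levels were 228.7 ± 57.8 TPM (SD, n = 3), 8.24 ± 1.27 TPM and 1.63 ± 0.535 TPM. The order of the genes was thus the same in both groups, with Cd207 closer to Ciita after UVB.

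Ratios within a library set langerin directly against the invariant chain gene, as no class II chain was analysed here. Langerin RNA was 6.70%, 7.39%, 6.95% and 7.84% of Cd74 RNA (ratio of TPM) in controls a to d, a narrow range. It was 3.00%, 5.02% and 3.24% in irradiated libraries a to c, all below the controls. The log2 ratio differed by -0.98 (exact two-sided permutation p = 0.0286, the smallest that the 35 arrangements can give). Adjusted over the 4 ratios computed, of 8 planned, the exact permutation p was 0.0571, so the difference did not pass after correction. The other 4 ratios needed class II chains.

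Langerin was also set against Epcam, which encodes an adhesion molecule carried by Langerhans cells and by gland epithelium. Cd207 was 3.95%, 7.10%, 4.28% and 5.53% of Epcam (ratio of TPM) in controls a to d, against 2.17%, 3.03% and 3.20% in irradiated libraries a to c. The groups did not overlap, with a log2 difference of -0.88 (exact two-sided permutation p = 0.0286, adjusted p = 0.0571). Ciita was 0.434% to 0.639% of Cd74 in the controls and 0.642% to 0.756% after UVB. These groups did not overlap either, by a margin of 0.639% against 0.642%, with a log2 difference of 0.39 (exact permutation p = 0.0571, adjusted p = 0.0762).

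Cd74 per Ptprc, the gene of the pan-leukocyte surface protein CD45, was 141.9, 101.2, 130.4 and 123.5 in controls a to d, against 91.9, 107.7 and 107.4 in irradiated libraries a to c. The groups overlapped through control b, and the log2 difference was -0.27 (exact permutation p = 0.114, adjusted p = 0.114). Ptprc itself measured 4.53 to 11.6 CPM in the controls and 5.15 to 8.48 CPM after UVB, a log2 fold change of -0.045 (SE 0.311, adjusted p by edgeR = 0.942).

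**Figure D3:**
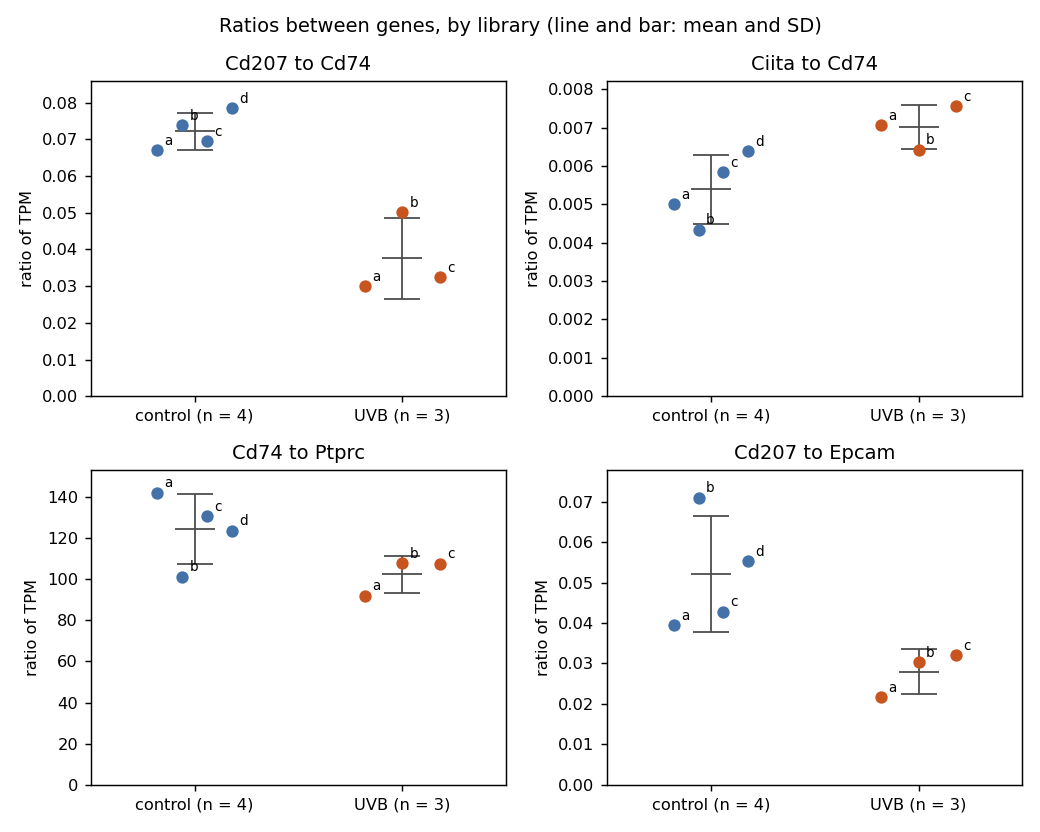
Ratios of TPM between pairs of genes in each library, with the group mean and SD; the y axes start at 0. Cd207 to Cd74 and Cd207 to Epcam are lower in all 3 UVB libraries than in all 4 controls, and Cd74 to Ptprc overlaps through control b.

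Around langerin, a list of Langerhans cell identity and niche genes held calls in both directions. Of 15 tested, 3 were called lower (Il34, Ly75, Epcam) and 2 higher (Cd1d1, Tgfb1), beside 6.74% lower and 6.30% higher over all genes tested. The median log2 fold change of the 15 was -0.084, beside -0.0058 for all genes tested. These 5 are named because they were called, after their values were seen. Interleukin 34 RNA, the survival factor, measured 12.0, 21.8, 16.6 and 20.9 CPM in controls a to d, against 10.3, 6.89 and 9.29 CPM in irradiated libraries a to c. The groups did not overlap (log2 fold change -1.02, SE 0.222, edgeR adjusted p = 0.0223), and the call was lost without control d, UVB b or UVB c, at adjusted p-values up to 0.0703. Its receptor gene Csf1r, which macrophages share, measured 28.7 ± 7.62 CPM (SD, n = 4) and 28.6 ± 6.63 CPM (SD, n = 3), and the log2 fold change was -0.0093 (adjusted p = 0.985).

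Ly75, which encodes the antigen uptake receptor DEC-205, fell from a control mean of 8.54 ± 1.98 CPM (SD, n = 4) to 4.31 ± 1.38 CPM in the UVB group (SD, n = 3), and the log2 fold change was -0.98 (SE 0.249, adjusted p by edgeR = 0.0331). The fits without control a, b or d, without UVB a or UVB b, and the 3 fits on TPM gave no call, with adjusted p-values up to 0.0939 and a log2 fold change of -0.58 nearest to 0. Epcam averaged 298.5 ± 18.6 CPM in the controls (SD, n = 4) and 237.7 ± 9.54 CPM after UVB (SD, n = 3), and fell by 0.33 on the log2 scale (SE 0.0684, adjusted p = 0.0167). Its call was lost without control c or d and without UVB b or c (adjusted p up to 0.0548). The E-cadherin gene Cdh1, which tethers Langerhans cells to keratinocytes and is itself abundant in epithelium, had a log2 fold change of -0.24 (adjusted p = 0.119). Both genes are also expressed by the gland epithelium, and the part of Langerhans cells in their levels was not tested.

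Tgfb1, whose product Langerhans cells need for residence in the epidermis, rose from a control mean of 17.2 ± 1.22 CPM (SD, n = 4) to 22.7 ± 1.10 CPM in the UVB group (SD, n = 3), and the log2 fold change was 0.40 (SE 0.0864, adjusted p by edgeR = 0.0187). Cd1d1, which encodes a lipid-presenting molecule, rose from 18.0 ± 1.09 to 23.9 ± 2.25 CPM, by a log2 fold change of 0.41 (SE 0.0912, adjusted p = 0.0208). Both calls were lost without control c (adjusted p up to 0.0584 for Tgfb1 and 0.0646 for Cd1d1 over their fits). That of Tgfb1 was also lost without UVB a, and that of Cd1d1 without control d or UVB c. Runx3 and Id2, which encode factors needed to form Langerhans cells, did not pass (log2 fold change -0.084 and 0.33, adjusted p = 0.836 and 0.0693).

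Genes of dendritic cell maturation and migration were called in both directions. Of 12 tested, 3 were higher (Fscn1, Cd80, Ccr7) and 1 lower (Ccl22), beside 6.30% higher and 6.74% lower over all genes tested. The median log2 fold change of the 12 was 0.44. The list was not uniform, since the maturation markers Cd83 and Cd86 measured -0.75 and -0.88 (adjusted p = 0.119 and 0.133). Fscn1, which encodes the actin bundler of mature dendritic cells and is also found in other cell types, measured 15.8, 10.5, 9.69 and 10.3 CPM in controls a to d. In irradiated libraries a to c it measured 50.6, 52.1 and 55.1 CPM, far above every control. Its log2 fold change was 2.19 (SE 0.153, adjusted p by edgeR = 0.00063) and it was called in all of its 18 alternative fits.

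The chemokine gene Ccl22, a product of dendritic cells that attracts regulatory T cells, fell from a control mean of 3.59 ± 1.07 CPM (SD, n = 4) to 1.44 ± 0.178 CPM in the UVB group (SD, n = 3), and the log2 fold change was -1.32 (SE 0.273, adjusted p by edgeR = 0.0163). It lost its call without UVB c only, of the alternatives tried (adjusted p = 0.0519). Ccr7, the receptor that guides dendritic cells to lymph nodes, was scarce, at 0.793 to 1.31 CPM in controls and 1.63 to 2.20 CPM after UVB (log2 fold change 0.88, adjusted p = 0.0464). Cd80, a costimulatory molecule gene, was as scarce, at 0.483 to 0.980 CPM in controls and 1.19 to 1.77 CPM after UVB (1.17, adjusted p = 0.039). Both lost their calls in 6 fits that each left out 1 library, namely all but the one without control a (adjusted p up to 0.134 for Ccr7 and 0.122 for Cd80), and Ccr7 in 3 further alternatives. The lowest of their changes in any alternative was 0.50 for Ccr7 and 0.40 for Cd80. Lamp3 was at 0 in every library.

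**Figure D4:**
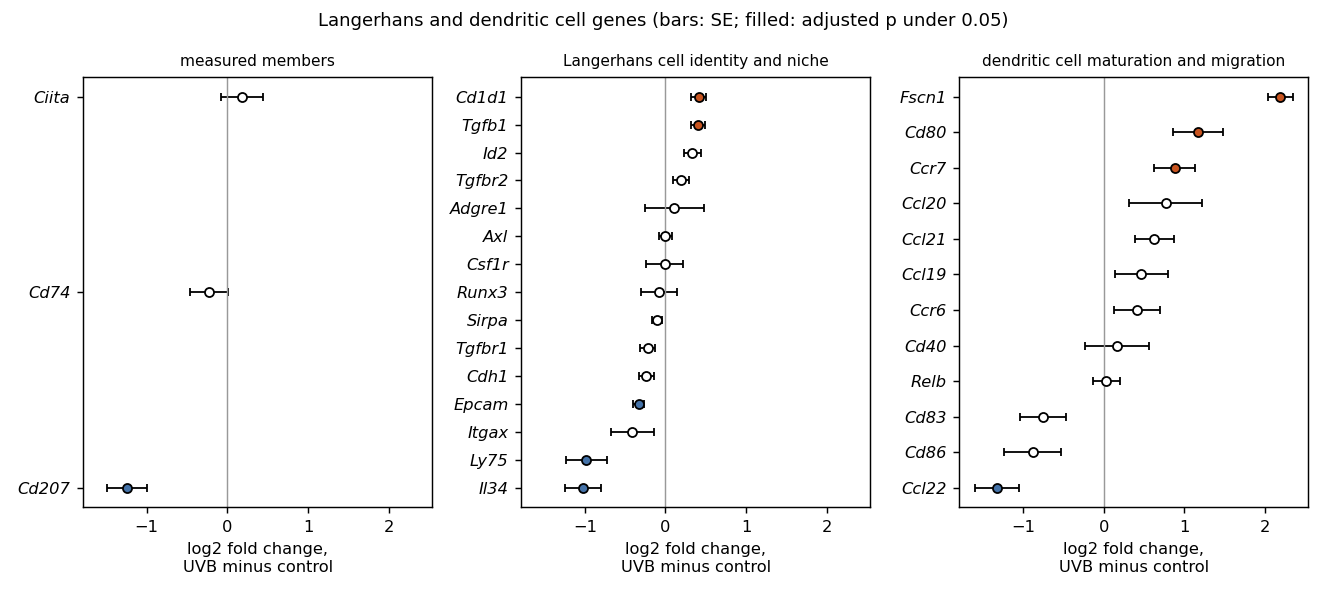
Log2 fold change (UVB minus control) with SE for the measured genes, the Langerhans cell list and the dendritic cell maturation list, filled where the adjusted p was under 0.05. Cd207, Il34, Ly75 and Ccl22 lie at -0.98 or lower, and Fscn1 lies at 2.19.

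Other cells of the sample carry class II, so their markers are given beside Cd74 and Cd207. Of 9 pan-leukocyte genes tested, 0 passed edgeR's adjusted threshold, 0 had an unadjusted p under 0.05 and 0 were called by DESeq2 or limma-voom, and their summed level was 150 to 193.3 CPM in controls and 155.3 to 206.9 CPM after UVB. Lcp1 was the largest part of these sums, at 77.6 to 108.7 CPM in controls and 77.2 to 101.8 CPM after UVB. Control b had the highest pan-leukocyte sum among controls and UVB b the lowest among the UVB libraries. These 2 libraries were also the extremes of Cd74, and held the same places in the macrophage, T cell and epidermal keratinocyte sums. The sums of the Langerhans cell and conventional dendritic cell lists matched as well. Control d was instead the highest control in the B cell, endothelial, fibroblast and skeletal muscle sums, and control a in the meibocyte sum. What lies behind the match was not tested. Of 12 macrophage genes tested, 5 were called higher (Cd163, Mrc1, C1qb, C1qc, Fcgr1a) and 0 lower, beside 6.30% higher and 6.74% lower over all genes tested. The median log2 fold change of the 12 was 0.52, with 4 of 12 below 0. The summed level of the macrophage list was 145.7 to 392.9 CPM in controls and 177.7 to 307.5 CPM after UVB. Lyz2, whose counts were not whole, made up most of the highest sum, at 248.3 CPM in control b. It ran from 63.5 to 248.3 CPM in controls and from 53.8 to 83.3 CPM after UVB. Lyz2, Trem2 and Cd68, also macrophage markers, measured -0.77, -0.60 and -0.41 (edgeR adjusted p = 0.359, 0.512 and 0.186). Cd163, a scavenger receptor gene of macrophages, rose from a control mean of 2.57 ± 0.966 CPM (SD, n = 4) to 29.6 ± 12.9 CPM in the UVB group (SD, n = 3), with a log2 fold change of 3.50 (SE 0.400, adjusted p by edgeR = 0.00402). Cd163 and C1qb were called in all their alternatives. Mrc1, C1qc and Fcgr1a lost the call in 7, 8 and 12 of 18 alternatives. Each lost it when control a, c or d or UVB a or c was left out, and Fcgr1a also when UVB b was. Their other losses came with other filters or fits on TPM, and for Fcgr1a also with other scalings or without robust estimation. The groups of Fcgr1a overlapped (edgeR adjusted p = 0.0491). The part of macrophages in the level of Cd74 was not tested.

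Among conventional dendritic cell genes, 1 of 7 tested was called higher (Clec10a) and 1 lower (Cadm1, which other cells express too). Over all genes tested, 6.30% were called higher and 6.74% lower. Clec10a, which encodes a galactose-binding lectin of dermal dendritic cells and macrophages, measured 4.34, 6.58, 5.66 and 4.23 CPM in controls a to d, against 13.6, 8.32 and 15.0 CPM in irradiated libraries a to c. Every UVB library was above every control (log2 fold change 1.24, SE 0.228, edgeR adjusted p = 0.0115), opposite in direction to Cd207. Cadm1 measured -0.59 (adjusted p = 0.0308) and lost its call in 9 alternatives, among them each fit lacking control b, c or d, or UVB a or b. The list summed to 27.5 to 36.5 CPM in controls and 28.6 to 43.4 CPM after UVB.

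Lymphocyte markers were scarce. The B cell list summed to 3.36 to 5.13 CPM in controls and 3.37 to 5.55 CPM after UVB, with 0 of 5 tested called by edgeR, DESeq2 or limma-voom and 0 at an unadjusted p under 0.05, and with Ms4a1, Cd79b and Mzb1 at no more than 3 counts in any library. The T cell list summed to 7.70 to 8.87 CPM and 6.50 to 9.79 CPM, and the median log2 fold change was -0.27, with 6 of 9 tested below 0. The T cell receptor complex genes Cd247, Cd3e and Cd3g measured -0.87, -0.55 and -0.27 (edgeR adjusted p = 0.2, 0.329 and 0.751). The list held 1 call in 9 tested, beside 13.0% of all genes tested. It was Cd8a, higher after UVB (0.238 ± 0.0662 CPM, SD, n = 4, against 1.37 ± 0.454 CPM, SD, n = 3, edgeR adjusted p = 0.00596). Epidermal keratinocyte genes summed to 12979 to 15855 CPM in controls and 15430 to 18293 CPM after UVB. Of 10 tested, 1 was called higher (Krt14) and 1 lower (Krt77), beside 6.30% higher and 6.74% lower over all genes tested. Krt5 and Krt14 made up most of the sums. Krt14 averaged 5099.9 ± 478.3 CPM in controls (SD, n = 4) and 7059.0 ± 343.4 CPM after UVB (SD, n = 3). Krt5 averaged 4536.3 ± 578.7 and 4469.3 ± 254.7 CPM. Among genes not called, Krt1 and Krt78 measured 0.39 and 0.49 on the log2 scale. Krt10, Dsg1, Dsc1 and Krt5 measured 0.07, 0.067, 0.053 and -0.021, and Lor and Casp14 -0.23 and -0.37. Krt14 had a log2 fold change of 0.47 (edgeR adjusted p = 0.0173). Krt77 had one of -5.90 (edgeR adjusted p = 0.00348) and was called in all 18 alternatives. The part of the epidermis in the level of Cd207 was not tested. The call of Krt14 was lost without control c or UVB c (adjusted p up to 0.0628).

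Of 11 class II transcription factor genes tested, 0 were called higher and 1 lower, Irf1, a share near the 13.0% called over all genes tested, with a median log2 fold change of -0.074. Irf1, an interferon-induced factor that acts on a Ciita promoter, measured 40, 56.9, 53.4 and 51.0 CPM in controls a to d, against 28.4, 32.4 and 29.4 CPM in irradiated libraries a to c. All UVB libraries were below all controls (log2 fold change -0.74, SE 0.116, edgeR adjusted p = 0.00656), and the call held in all 18 alternatives. Rfx5, a subunit of the complex on the X box, measured 19.5 ± 0.762 CPM (SD, n = 4) and 21.3 ± 0.877 CPM (SD, n = 3), with a log2 fold change of 0.13 (adjusted p = 0.299). Nfya, a subunit of the Y box factor, measured -0.21 (adjusted p = 0.143). Counts of Nfya, like those of Scd and Krt14, were not whole, and how reads were assigned to these genes is not given in the sources used here.

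Of 14 processing and trafficking genes tested, 1 was called higher (Ctsz) and 0 lower, with a median of 0.014. That share was not above the 13.0% called over all genes tested. Ctss encodes cathepsin S, the protease that trims the invariant chain. It measured 9.20, 24.0, 15.3 and 12.6 CPM in controls a to d, against 14.2, 12.3 and 17.5 CPM in irradiated libraries a to c. Control b was again the highest, and the groups overlapped (log2 fold change -0.061, SE 0.298, edgeR adjusted p = 0.917). Ctsz, which encodes cathepsin Z, overlapped between groups at 23.0 to 33.2 and 32.6 to 41.4 CPM, and its call (log2 fold change 0.51, adjusted p = 0.0433) was lost in 10 of 18 alternatives, among them each fit lacking control a, c or d, or UVB a or c. The reductase gene Ifi30, which unfolds antigen, measured 61.4 ± 5.54 CPM (SD, n = 4) and 74.0 ± 3.51 CPM (SD, n = 3), just short of the threshold (0.27, adjusted p = 0.0522), and was called in 5 alternatives. Ctsl, which encodes cathepsin L, measured -0.35 (adjusted p = 0.122) and was called without control b (-0.45, adjusted p = 0.038).

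Class I presentation is the parallel path for peptides from the cytosol. Of 11 of its genes tested, 2 were called lower (B2m, Nlrc5) and 1 higher (Canx), beside 6.74% lower and 6.30% higher over all genes tested. The median log2 fold change of the 11 was -0.23. The list held 18 genes, and no class I heavy chain gene was among the 11 measured. B2m, the light chain of class I, measured 460.8, 562.7, 581.2 and 548.4 CPM in controls a to d, against 392.1, 396.2 and 372.1 CPM in irradiated libraries a to c. It was lower in every UVB library (log2 fold change -0.48, SE 0.0866, edgeR adjusted p = 0.0104) and was called in all 18 alternatives. Nlrc5, which encodes the class I transactivator related to CIITA, fell from a control mean of 13.2 ± 1.5 CPM (SD, n = 4) to 8.75 ± 0.688 CPM in the UVB group (SD, n = 3), by 0.59 on the log2 scale (SE 0.123, adjusted p = 0.0167). It lost the call without UVB c and in the 3 fits on TPM (adjusted p up to 0.0577). The chaperone gene Canx rose by 0.31 (adjusted p = 0.0318), a call lost in 6 fits without 1 library, all but that without control a. Whether Ciita and Nlrc5 differ from each other in their response was not tested.

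In the interferon gamma list, which also holds Irf1, 0 of 11 tested were called higher and 1 lower (Irf1), with a median of -0.023. That share was not above the 13.0% called over all genes tested. Jak2, a kinase of the receptor, measured 0.27 (adjusted p = 0.0689) and was called by DESeq2 (adjusted p = 0.0407) and without UVB a (0.38, adjusted p = 0.0175). Gbp5, an interferon-induced GTPase gene, measured 4.63 ± 0.706 CPM (SD, n = 4) and 3.27 ± 0.398 CPM (SD, n = 3), and the log2 fold change was -0.51 (edgeR adjusted p = 0.0952), with no overlap between groups. Ido1 was at 0 in every library.

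**Figure D5:**
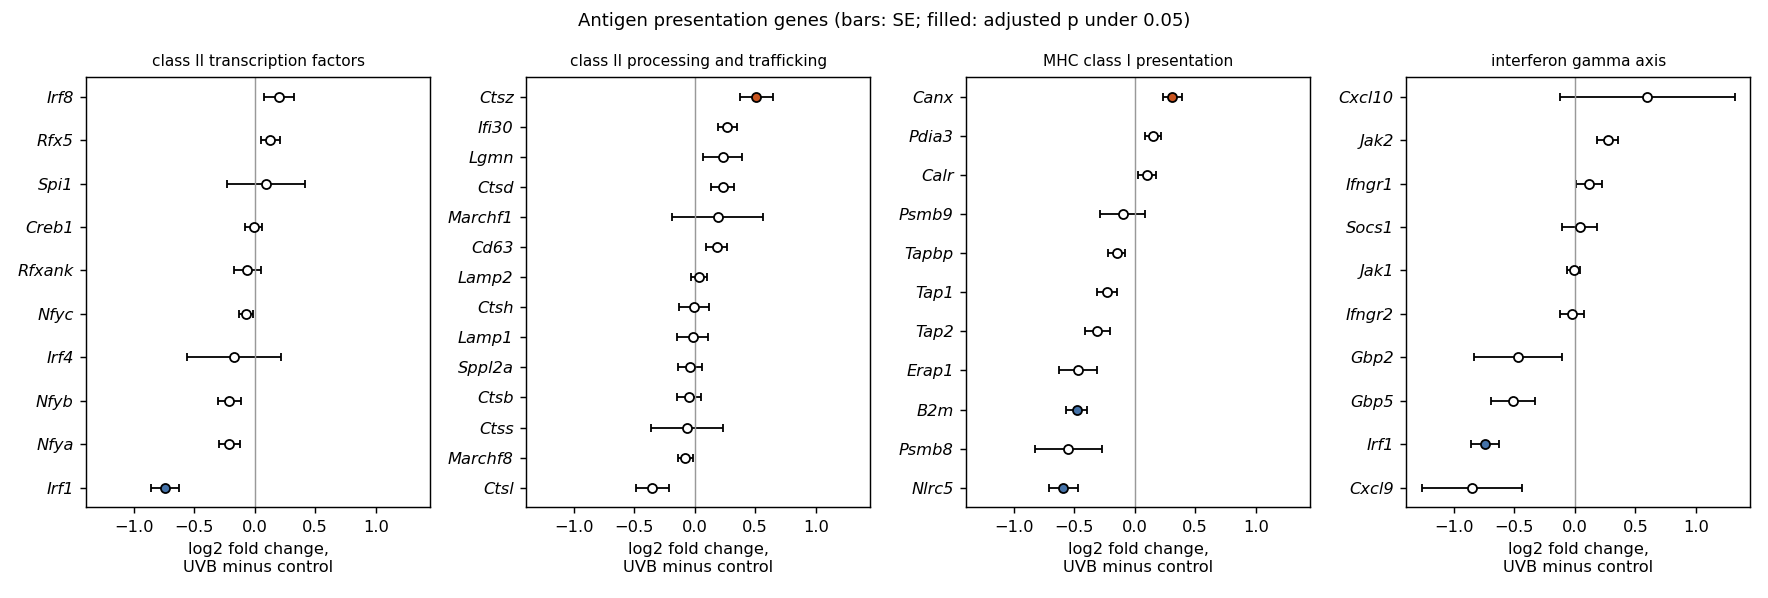
Log2 fold change (UVB minus control) with SE for class II transcription factors, class II processing genes, class I presentation genes and the interferon gamma list, filled where the adjusted p was under 0.05; 1 gene of the first and last lists is not plotted. The filled points below 0 are Irf1 (-0.74), Nlrc5 (-0.59) and B2m (-0.48).

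The genes whose log2 CPM, centred on the mean of the 7 libraries, lay closest to Cd207 were Alpg, Herc6, Arhgap44, Cadps2 and Oas3, with root mean square differences of 0.15, 0.16, 0.18, 0.21 and 0.22 over the 7 libraries. Closest to Cd74 were Kcnk4 (0.08), Slc5a9 (0.10), Tgfbi, Golm1 and Gpr183 (0.12 each). Since likeness to Cd207 includes the difference between groups, the 5 near it had log2 fold changes of -1.28 to -0.82, and those near Cd74 of -0.29 to -0.034. In GRCr8, Cd74, Ciita and Cd207 overlap no other gene in the table. Il34, Ly75, Ccr7, Cd86, Fscn1, Cadm1, Nlrc5, Canx, Ctsz, Ido1, Mrc1, Fcgr1a, Ms4a1, Dcn, Arhgap44, Cadps2, Kcnk4, Golm1 and Gpr183 each overlap another gene, and as the handling of strand is not stated their counts may include reads of it.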

How the data were processed

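RNA sequencing libraries of 4 control and 3 UVB glands were analysed. The authors deposited expected counts (estimated counts per gene, not normalised; 12.5% of values not whole). They also deposited TPM values, scaled by the authors for gene length; the listed genes sum to 82.0 to 84.1% of the full TPM total per library. The submitters' processing notes name FastQC, Trimmomatic, DRAGEN and Picard and build rn7, with no roles or settings; strand handling is not given in the sources used here. Unquoted commas shift cells, so each row's last 7 cells were taken, and 5 rows lacking a value were left out. Counts and TPM of the 3 measured genes kept 1 ratio across libraries within 1.5 times. The column names give the group, genotype, tissue and a number that matches no label, so each column was mapped to its group only.

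Counts were rounded and tested with edgeR 4.0.16 (R 4.3.3): quasi-likelihood test, robust, TMM, filterByExpr, Benjamini-Hochberg over 13709 genes, threshold 0.05, with SE as the log2 fold change over the root of F. The fits were tested on simulated data. TPM ratios used exact permutation. Each result was also computed with DESeq2 1.42.0, with voom (limma 3.58.1), with other scalings and filters, with limma on log2(TPM + 1) or log2(TPM + 0.1), and without each library. Members and lists were chosen with earlier results of these data known. Of 190 listed symbols, 168 were measured; 1 listed gene is not reported here by name or value. Named genes were every measured member, Ptprc, Epcam, the 3 of smallest p in each pathway list and the 5 closest in pattern to Cd74 and to Cd207; marker genes past the threshold and other genes outside this rule were named after their values were seen.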

Additional observations from a re-analysis of the deposited data

Results flagged for a closer look

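The 4 controls were screened for 59 values, and in 5 a single library stood far off; at about 1 in 20, chance gives 2.95. Control a was apart for 4 of them. Epcam measured 270.7 CPM in control a against 305.0 to 310.5 CPM in the other controls. Fscn1 measured 15.8 CPM in control a against 9.69 to 10.5 CPM, and Cd80 0.980 CPM against 0.483 to 0.560 CPM. Cd8a measured 0.140 CPM in control a against 0.256 to 0.280 CPM. For Krt77 control b stood at 85.0 CPM and the other controls at 27.2 to 32.0 CPM. None of the values of Cd74, Ciita, Cd207 or the 4 ratios met this criterion, and groups of 3 were not examined.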

How the results depend on the processing

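No paired analysis was possible because no column name holds a labelled replicate number; the planned replicate block was not run. The log2 fold change of Cd207 was -1.24 to -1.11 over the 11 other tools, scalings, filters and TPM fits, all past the threshold, and -1.38 to -1.04 without 1 library, with the call lost without UVB a or b. The number of measured members called ran from 0 to 1 without 1 library. Cd74 ran from -0.43 to -0.045 and Ciita from -0.094 (without UVB c) to 0.40, never called. All genes called ran from 851 to 1898 without 1 library (421 to 927 higher, 430 to 971 lower), falling by over 1.5 times without control b, c or d or UVB b or c, and log2(TPM + 1) without a filter called 571 lower; the cause was not tested. Ptprc, never called, changed sign to 0.011 (limma-voom), 0.025 (log2(TPM + 1), with and without the filter), 0.048 (log2(TPM + 0.1)), 0.26 (without control b) and 0.15 (without UVB b), within -0.21 to 0.26 without 1 library. Gpr183, never called, changed sign to 0.002 (log2(TPM + 1), no filter), 0.19 (without control b) and 0.16 (without UVB b), within -0.27 to 0.19. Without 1 library the ratio difference of Cd207 to Cd74 ran from -1.21 to -0.84, of Cd207 to Epcam from -1 to -0.70, of Ciita to Cd74 from 0.29 to 0.48 and of Cd74 to Ptprc from -0.37 to -0.20. For 52 other named genes, 762 of 927 alternative values kept direction and call, 148 lost the call, 8 gained one and 9 changed sign. Counts per library ran from 67 to 178 for Ciita, 21 to 57 for Ccr7, 12 to 46 for Cd80 and 3 to 44 for Cd8a, and the part of counting error in their spread was not tested.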

Other observations

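Other marker lists of the gland are given as values. They stand beside 6.30% called higher and 6.74% called lower over all genes tested. Of 6 endothelial genes tested, 2 were called higher after UVB (Cdh5, Vwf) and 0 lower, with a summed level of 86.0 to 105.8 CPM in controls and 119.9 to 138.2 CPM after UVB. Of 6 fibroblast genes tested, 3 were called higher (Pdgfra, Dcn, Lum) and 0 lower, with sums of 2450 to 3791 and 2496 to 4161 CPM. Col1a1 and Col3a1, which were not called (log2 fold change -0.48 and 0.019), made up most of the fibroblast sums. Of 12 meibocyte genes tested, 4 were called lower (Awat2, Awat1, Plin2, Cidea) and 1 higher (Fa2h), with sums of 95512 to 118197 and 89901 to 110512 CPM. Scd, which was not called (log2 fold change -0.04), made up most of the meibocyte sums, and 9 of the 12 genes had changes below 0. Of 6 skeletal muscle genes tested, 1 was called lower (Actn3), with sums of 2294 to 3095 and 1569 to 2734 CPM. Among these calls, those of Awat1, Fa2h, Dcn, Cdh5 and Actn3 were lost in 6 to 11 alternatives each, with some of the fits that left out 1 library among them, and the others in none.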
